A study of Mus musculus with 25 samples.

Results

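Neurofilaments, tubulins and other parts of the neuronal cytoskeleton were followed in mouse dorsal root ganglia as 10 genes: Nefl, Nefm, Nefh, Prph, Ina, Tubb3, Tubb2b, Tuba1a, Stmn2 and Capza2. They were chosen by symbol and by no rule on their values, but with earlier results of these data known. Each had 1 probe set on the array, and all 10 were among the 20260 genes that were bright enough to be tested, of 30142 genes with a symbol. The tissue came from male C57BL/6 mice and consisted of the lumbar ganglia L3 to L5, which hold the sensory neurons of the hind limb together with their glia, vessels, connective tissue and macrophages. Naive mice were untreated. The operated mice were either sham-operated or had their medial meniscus destabilized (DMM, used to model osteoarthritis), in both cases at an age of 10 weeks and on the right knee. Tissue was collected 4, 8 and 16 weeks after surgery, at 14, 18 and 26 weeks of age, and from naive mice of the same ages. The 25 arrays made up 9 groups. These were 9 naive arrays, 9 DMM arrays and 7 sham arrays, with 3 arrays in each group except sham at 8 weeks, which kept 1 because the submitters set the others aside at quality control. No transgene, drug or diet is named in the labels. They give neither the number of mice behind an array nor the side of the ganglia, so p-values measure the spread between these arrays, which may be technical in part, and a unilateral response could be diluted by the opposite side.

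Axons are held open and supplied along 3 kinds of filament. Intermediate filaments set the calibre of the axon: the neurofilament triplet of a light (Nefl), a medium (Nefm) and a heavy (Nefh) subunit is abundant in large myelinated sensory neurons, peripherin (Prph) is typical of small unmyelinated neurons and is known to respond to nerve injury, and internexin alpha (Ina) is a partner of neurofilaments that is prominent in developing and central neurons. Microtubules, built from alpha and beta tubulin, are the tracks of axonal transport. Tuba1a is an alpha tubulin of growing neurons, Tubb3 is the beta tubulin used as a general neuronal marker, Tubb2b is a beta tubulin associated with neuronal development and regrowth, and Stmn2 (stathmin 2) binds tubulin in the growth cone and is needed for axon regeneration. Capza2 is the odd member: it encodes an alpha subunit of the protein that caps the fast-growing end of actin filaments, and it is expressed in most cell types.

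Promoters are shown for 3 members: Prph and Tubb3, which varied together across arrays, and Capza2, which had the clearest difference between groups. Each line gives the 100 bases before the start used in a table of RefSeq promoters in build GRCm38.p6, 5′ to 3′ on the gene's strand. For Tubb3 and Capza2 this start is the first base of the RefSeq gene, whereas for Prph it lies inside the span of the gene, downstream of its outermost annotated start. Capitals mark TATAA on either strand. The windows lie at chr15:99055074-99055173 (plus strand) for Prph, chr8:123411453-123411552 (plus strand) for Tubb3 and chr6:17636910-17637009 (plus strand) for Capza2.
Prph: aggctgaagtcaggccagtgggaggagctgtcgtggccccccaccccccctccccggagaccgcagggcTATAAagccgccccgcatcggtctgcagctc
Tubb3: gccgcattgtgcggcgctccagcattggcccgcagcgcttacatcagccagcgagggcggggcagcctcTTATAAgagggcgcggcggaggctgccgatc
Capza2: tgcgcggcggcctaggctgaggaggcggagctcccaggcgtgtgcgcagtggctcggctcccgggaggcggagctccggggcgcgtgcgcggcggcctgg
The TATAA run began 31 bases before that start in Prph and 30 bases before it in Tubb3, where TATAA and its reverse complement TTATA overlap. The Capza2 window held none; 80 of its 100 bases were G or C, against 70 in Prph and 69 in Tubb3. The promoter table matched 5 of the 10 members (Prph, Ina, Tubb3, Tuba1a and Capza2), and 3 of these 5 windows held TATAA, against 10.2% of all 32851 windows of the same length. Besides Prph and Tubb3 this was Tuba1a, where TATAA began 78 bases before the start. GGGCGG, searched on both strands, was present in 4 of the 5 (not in Capza2) and in 24.7% of all windows. CCAAT, searched likewise, was present in 1 of the 5 (Tubb3) and in 18.9% of all windows. These matches describe letters only.

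The make-up of the tissue was checked with marker lists, which cannot show which cells gave the signal of the members. The mean of 13 general sensory neuron markers lay between 13.71 and 13.92 (log2 intensity) on every array. Of 10 markers of spinal cord cells, 6 were too dim to be tested, among them Mog, Mobp and Chat. Olig1, Olig2, Aqp4 and Slc6a11 were bright enough, with means over all arrays of 6.02, 5.06, 6.37 and 6.24. Array medians ran from 4.88 to 4.97 and the correlation between arrays of a group from 0.993 to 0.998. The 3 naive arrays at 4 weeks differed from the later naive arrays in many genes. In limma 6.28% of all genes were called at 8 against 4 weeks and 18.8% at 16 against 4 weeks. The mean of 19 nerve injury response genes was 9.19 to 9.41 on the naive arrays at 4 weeks, 7.58 to 8.38 in naive mice at 8 weeks and 7.57 to 7.67 at 16 weeks. It was also uneven after surgery (8.17 to 9.01 in sham and 7.86 to 9.23 in DMM at 4 weeks, 7.65 to 9.43 in DMM at 8 weeks, 9.10 on the lone sham array), and 7.56 to 7.78 on all arrays at 16 weeks. These values stand beside every comparison below that uses the naive arrays at 4 weeks, including the average over the 3 times, the changes with time and the gene lists.

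All 10 genes were far above the background probe sets, whose array medians were 3.31 to 3.58. Levels of different genes are not set against each other, because probe sets differ in how brightly they respond. Within each gene the arrays were close together. Over the 25 arrays, Tuba1a lay between 18.91 and 19.08, Stmn2 between 18.29 and 18.52, Nefl between 18.27 and 18.60 and Tubb3 between 17.34 and 17.70. Tuba1a was nearest to the highest value recorded on any array (19.70) and was among the steadiest genes tested: its residual SD was 0.037, larger than that of only 0.163% of genes. Whether the array still responded in proportion at this brightness was not tested. The median residual SD of all genes was 0.121. Nefm (0.148), Nefh (0.150), Tubb2b (0.162) and Ina (0.174) were above it.

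The neurofilament triplet mostly overlapped between treatments at each time. Nefl was 18.40, 18.51 and 18.54 in naive, 18.60, 18.45 and 18.47 in sham and 18.52, 18.44 and 18.45 in DMM mice at 4 weeks. At 16 weeks it was 18.40, 18.37 and 18.33 in naive, 18.39, 18.43 and 18.43 in sham and 18.51, 18.27 and 18.39 in DMM mice. The 3 treatments overlapped at both times, and at 16 weeks the DMM arrays included both the highest and the lowest value. The order of the 9 group means ran from 18.60 on the lone sham array at 8 weeks to 18.37 in naive mice at 16 weeks. Where both had 3 arrays, neighbours in that order overlapped, except DMM mice at 4 weeks (18.44 to 18.52) and sham mice at 16 weeks (18.39 to 18.43). Nefm and Nefh, which add the long side arms that space filaments apart, spread more. Nefh was 16.30, 16.57 and 16.69 in naive, 16.59, 16.47 and 16.62 in sham and 16.57, 16.43 and 16.24 in DMM mice at 4 weeks. At 16 weeks it was 16.21, 16.27 and 16.31 in naive, 16.37, 16.49 and 16.55 in sham and 16.60, 16.21 and 16.39 in DMM mice. All 3 sham arrays at 16 weeks were above all 3 naive arrays of that age, and the DMM arrays overlapped both. The share of all genes with such separations was not computed. Group means of Nefm ran from 14.31 ± 0.07 (SD, n = 3) in sham mice at 4 weeks to 13.94 ± 0.15 (SD, n = 3) in DMM mice at 16 weeks, and all 3 groups had a lower mean at 16 than at 4 weeks.

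Prph, the peripheral intermediate filament of small neurons, was 16.64, 16.44 and 16.51 in naive, 16.38, 16.44 and 16.43 in sham and 16.42, 16.44 and 16.31 in DMM mice at 4 weeks. It was 16.27, 16.20 and 16.29 in naive and 16.32, 16.47 and 16.25 in DMM mice at 8 weeks, with 16.42 on the lone sham array. At 16 weeks it was 16.24, 16.33 and 16.39 in naive, 16.33, 16.26 and 16.29 in sham and 16.19, 16.25 and 16.33 in DMM mice. The naive arrays at 4 weeks were the highest group, and among the groups of 3 arrays at 8 and 16 weeks no neighbours in the order of means differed beyond their spread. Ina was the most variable member, from 10.97 on a DMM array at 16 weeks to 11.91 on a naive array at 8 weeks. In naive mice at 16 weeks it was 11.32, 11.49 and 11.34, in sham mice 11.35, 11.12 and 11.37, and in DMM mice 10.97, 11.09 and 11.27. The DMM arrays lay below every naive array of that age, while sham overlapped both. The share of all genes separated like this was not computed.

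Of the tubulins, Tubb3 and Tubb2b had their highest group means in naive mice at 4 weeks. Tubb3 was 17.65, 17.64 and 17.70 in naive, 17.70, 17.55 and 17.57 in sham and 17.68, 17.59 and 17.41 in DMM mice at 4 weeks. At 16 weeks it was 17.34, 17.44 and 17.43, then 17.43, 17.45 and 17.44, and then 17.46, 17.39 and 17.43 in the same order. The sham arrays did not overlap between the 2 times, nor did the naive arrays, whereas the DMM arrays did. How many of all genes were separated like this was not computed. Tubb2b was 14.86, 14.36 and 14.49 in naive, 14.34, 14.55 and 14.30 in sham and 14.28, 14.60 and 14.25 in DMM mice at 4 weeks. At 16 weeks it was 14.16, 14.15 and 14.11 in naive, 14.24, 14.02 and 14.23 in sham and 13.96, 14.25 and 14.23 in DMM mice. A single naive array (14.86) was the highest of all 25. Tuba1a group means all lay between 19.01 and 19.07, and those of Stmn2 between 18.35 in naive mice at 8 weeks and 18.47 in naive mice at 4 weeks.

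Capza2 had the clearest pattern of the 10. It was 12.48 on each of the 3 naive arrays at 4 weeks, and between 12.00 and 12.27 on all 22 other arrays. At 4 weeks the sham arrays were 12.18, 12.02 and 12.13 and the DMM arrays 12.19, 12.17 and 12.10. Naive mice at 8 weeks gave 12.05, 12.16 and 12.07 and at 16 weeks 12.06, 12.22 and 12.00. DMM mice gave 12.23, 12.18 and 12.12 at 8 weeks and 12.22, 12.25 and 12.16 at 16 weeks, sham mice 12.27, 12.19 and 12.14 at 16 weeks, and the lone sham array at 8 weeks 12.14. The naive group at 4 weeks was thus separate from everything else, and each of the other 8 groups overlapped its neighbours in the order of means. How many of all genes set that group apart like this was not computed.

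**Figure D1:**
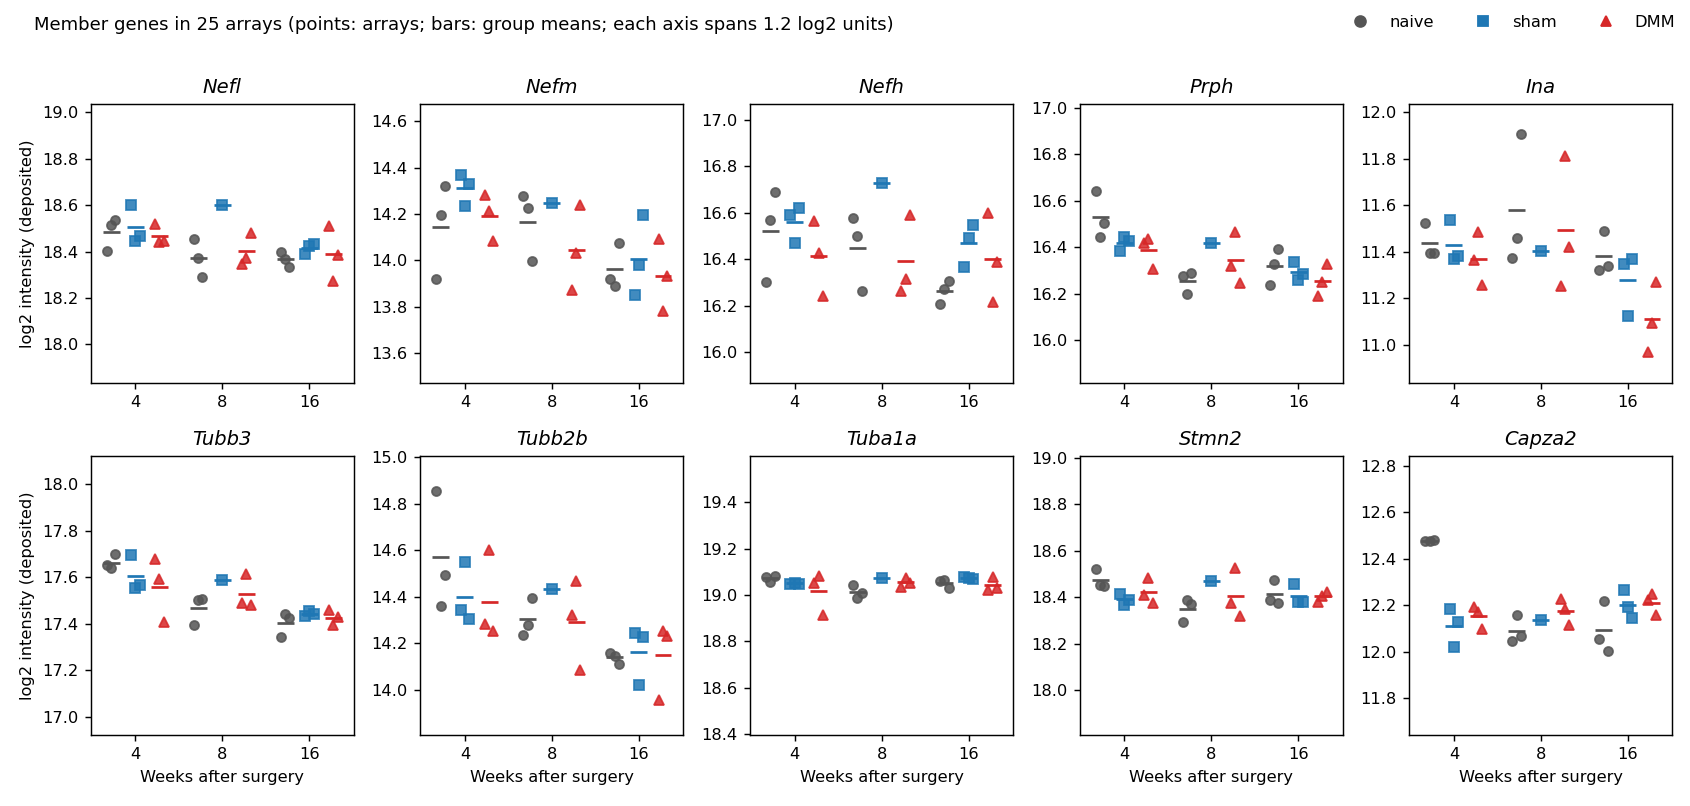
Deposited log2 intensity of the 10 genes (vertical axes, each spanning 1.2 log2 units) by weeks after surgery, with 1 point per array, in the order naive, sham and DMM at each time; horizontal bars are group means of 3 arrays (1 array for sham at 8 weeks). Most groups overlap; the 3 naive arrays at 4 weeks stand alone for Capza2 at 12.48, and Tubb3, Tubb2b and Prph are highest in that group.

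The first question was whether the cytoskeletal genes differ after joint surgery. None of the 10 differed between DMM and naive mice averaged over the 3 times in limma after Benjamini-Hochberg adjustment, where 0.0444% of all genes passed. None reached an unadjusted p of 0.05 either, against 7.32% of all genes. The largest difference was that of Ina, with a mean of 11.32 in DMM and 11.47 in naive mice (-0.14 ± 0.08 log2, SE; 95% interval -0.30 to 0.02; adjusted p = 0.719 in limma). The intervals of the other 9 bound the difference more tightly: that of Nefl ran from -0.07 to 0.09, that of Tubb3 from -0.08 to 0.07, that of Stmn2 from -0.07 to 0.06 and that of Nefh from -0.15 to 0.13. The median difference of the members was -0.02, beside -0.01 for all genes. In bulk tissue, fewer cells of a type and less RNA per cell cannot be told apart.

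At the single times the count was also 0 of 10 in limma. At 4 weeks 0.00987% of all genes passed the adjusted threshold and 8.8% the unadjusted one, which 2 members met. These were Capza2 (DMM mean 12.15, naive mean 12.48; -0.32 ± 0.06, 0.80-fold; adjusted p = 0.133) and Prph (16.39 against 16.53; -0.14 ± 0.07; adjusted p = 0.544 in limma). For both, every DMM array was below every naive array, and the share of all genes separated in this way was not computed. The injury list mean was 9.19 to 9.41 in that naive group and 7.86 to 9.23 in the DMM group. The macrophage list mean was 7.43 to 7.78 and 7.32 to 7.46, and the part of either in these differences was not tested. At 8 weeks, where 0.0494% of genes passed adjusted and 8.49% unadjusted, no member reached an unadjusted p of 0.05, and the differences lay between -0.12 for Nefm and 0.09 for Prph. At 16 weeks, where 0.0148% passed adjusted and 8.81% unadjusted, no member did either. Ina came nearest (11.11 in DMM and 11.38 in naive mice; -0.27 ± 0.13, 0.83-fold; adjusted p = 0.584 in limma).

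Against sham mice, which share the incision but not the unstable meniscus, no member passed either. In limma 0 of 10 passed at 4 weeks, where no gene at all did (0%, and 4.68% unadjusted). At 16 weeks 0 of 10 passed, beside 0.00494% of all genes (6.45% unadjusted), and for the average of both times 0 of 10, beside 0.00987% (4.88% unadjusted). No member reached an unadjusted p of 0.05 in any of the 3. The averaged differences lay between -0.12 for Ina (95% interval -0.31 to 0.08) and 0.03 for Capza2 (-0.06 to 0.12). Nefl differed by -0.03 (-0.13 to 0.07), Nefm by -0.10 (-0.27 to 0.08) and Nefh by -0.11 (-0.28 to 0.07). At 8 weeks sham had 1 array, so that time was left out. The comparisons with naive and with sham mice share the DMM arrays and are not independent of each other.

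**Figure D2:**
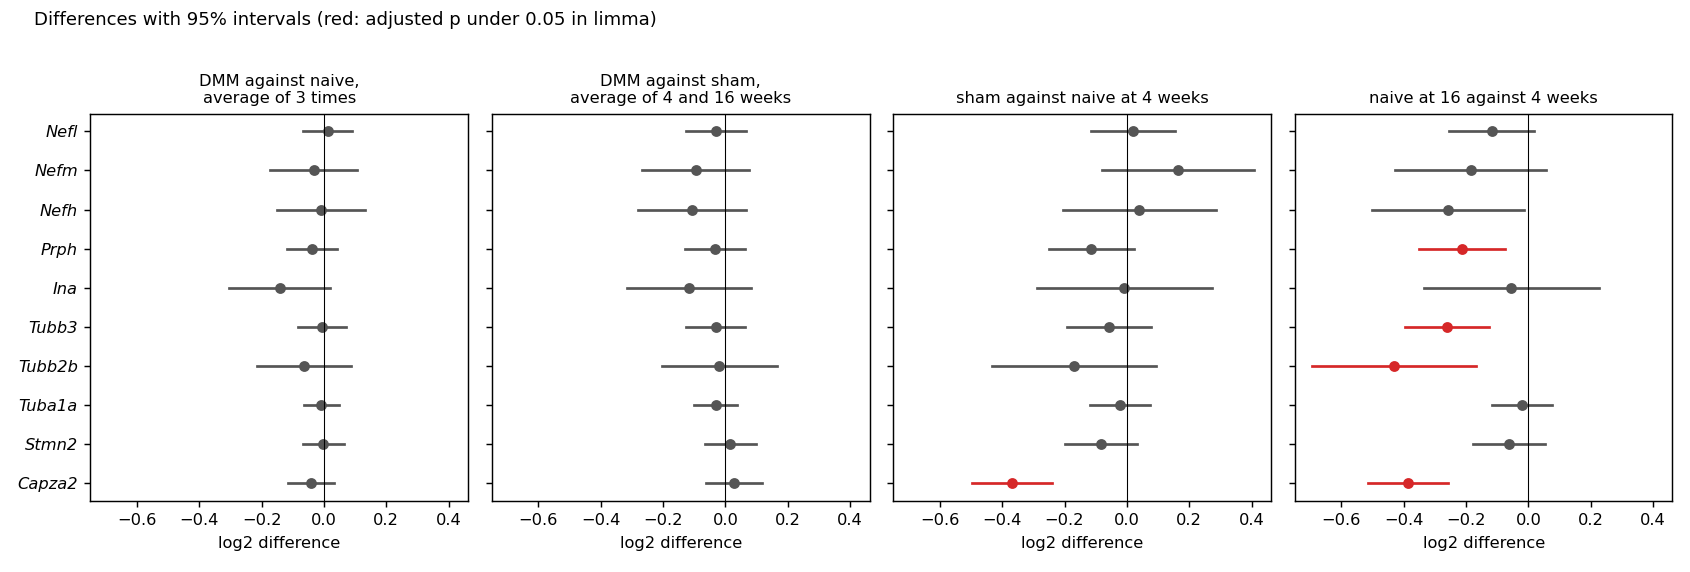
Difference in mean log2 intensity (points) with 95% intervals (lines) for the 10 genes in 4 comparisons, on a common horizontal axis; red marks an adjusted p under 0.05 in limma. No gene is red for DMM against naive or sham, Capza2 is red for sham against naive at 4 weeks, and Capza2, Tubb2b, Tubb3 and Prph are red and lower for naive mice at 16 against 4 weeks.

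Sham surgery was then set against no surgery. At 4 weeks Capza2 was the 1 member of 10 that passed, and it was lower in sham mice: 12.11 against 12.48 (-0.37 ± 0.06, SE; 0.78-fold; adjusted p = 0.029 in limma). Over all genes 0.331% passed and 0.281% were lower. The other 9 members did not pass (adjusted p 0.415 to 0.983 in limma), with differences from -0.17 for Tubb2b to 0.16 for Nefm. The sister capping subunit Capza1 had a difference of -0.33 ± 0.08 that did not pass (adjusted p = 0.0715 in limma). The call of Capza2 rests on the threshold: it was lost when any 1 of the 3 naive arrays or the sham arrays of replicate 2 or 3 was left out (adjusted p 0.0706 to 0.135), with no filter on dim genes (0.052) and when only the arrays compared were fitted (0.138), although the difference stayed between -0.32 and -0.40 in these fits. Beside it, 4 of 12 macrophage markers (Cd68, Csf1r, C1qc and Mrc1) were also lower in sham mice at this time. The macrophage list mean was 7.43 to 7.78 in naive and 6.86 to 7.15 in sham mice, and the injury list mean 9.19 to 9.41 and 8.17 to 9.01; the part of either in the Capza2 difference was not tested. All 11 fibroblast and meninges markers had differences below 0 (median -0.54), of which none passed and 1 reached an unadjusted p of 0.05 in limma. With the injury list mean as a covariate, a setting chosen after seeing the data, Capza2 differed by -0.35 (adjusted p = 0.0396 in limma). The injury means of the groups compared did not overlap, so this fit does not test the part of the injury list either. Of the 67 genes that passed, 57 were lower in sham; after quantile normalization 81 were lower and 33 higher, and after cyclic loess 35 were lower and 79 higher. Capza2 was lower and called under each of the 3. At 16 weeks 0 of 10 members passed in limma, beside 0.00494% of all genes, and none reached an unadjusted p of 0.05, beside 10.8% of all genes. The largest difference there was in Nefh (16.47 in sham and 16.26 in naive mice; 0.21 ± 0.12; adjusted p = 0.564).

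Age was read in naive mice first. There 4 of the 10 were lower at 16 than at 4 weeks (26 against 14 weeks of age) and none was higher, beside 18.8% of all genes called and 12.7% called lower. All 10 differences were below 0. Capza2 was at 12.09 against 12.48 (-0.39 ± 0.06, 0.77-fold; adjusted p = 0.000477). Tubb3 was at 17.40 against 17.66 (-0.26 ± 0.06, 0.84-fold; adjusted p = 0.00879 in limma). Tubb2b was at 14.14 against 14.57 (-0.43 ± 0.13, 0.74-fold; adjusted p = 0.0223 in limma). Prph was at 16.32 against 16.53 (-0.21 ± 0.07, 0.86-fold; adjusted p = 0.0302 in limma). For each of these 4, every older array was below every younger one, and the share of all genes separated in this way was not computed. The calls of Capza2 and Tubb3 held with any 1 array left out. That of Prph was lost without naive replicate 1 or 3 at 4 weeks or replicate 1 or 2 at 16 weeks (adjusted p 0.0609 to 0.145 in limma), and that of Tubb2b without replicate 1 at 4 weeks, where its difference was -0.29, or any 1 of the 3 at 16 weeks (adjusted p 0.0513 to 0.129 in limma). The neurofilament triplet did not pass: Nefh differed by -0.26 ± 0.12 (adjusted p = 0.13 in limma), Nefm by -0.18 ± 0.12 and Nefl by -0.12 ± 0.06. Tuba1a (-0.02 ± 0.05), Stmn2 (-0.06 ± 0.06) and Ina (-0.05 ± 0.13) were nearest to 0. The median difference was -0.20 for the members and -0.07 for all genes.

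The calls for Tubb3, Tubb2b and Prph depended on how arrays were scaled, and that for Capza2 did not. After quantile normalization the median difference of the members was -0.05 and that of all genes -0.12, and Capza2 was the only member called (-0.35; adjusted p = 0.00167 in limma). Tubb3 was then at -0.05, Prph at 0.0025, on the other side of 0, and Tubb2b at -0.31 (adjusted p = 0.0783 in limma). After cyclic loess Capza2 was again the only call, with Tubb3 at -0.12, Prph at -0.08 and Tubb2b at -0.32. The share of lower genes among all calls was 67.7% as deposited and 80.7% after quantile normalization. The older arrays also had lower values of 15 of 19 nerve injury response genes (list median -1.16) and of 9 of 12 macrophage markers (list median -0.65), and higher values of 6 of 13 markers of small unmyelinated neurons (list median 0.32). Fibroblast and meninges markers had a list median of -0.47 with none of 11 called, and 2 of 8 satellite glia markers were lower. The part of these in the differences was not tested. A fit with the injury list mean as a covariate cannot test it. That mean did not overlap between the 2 groups, and the slope in the fit comes from variation within groups only. In that fit 2 members passed, Capza2 lower and Ina higher (0.46, adjusted p = 0.0308 in limma), and Tubb3 (-0.11), Tubb2b (-0.16) and Prph (-0.08) did not.

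Naive mice at 8 weeks were then set against both other times. These comparisons were added after the values had been seen. Between 8 and 4 weeks in naive mice, Capza2 (12.09 against 12.48; -0.39 ± 0.06; adjusted p = 0.0042) and Prph (16.25 against 16.53; -0.28 ± 0.07; adjusted p = 0.0207) were lower in limma, 2 of 10 members beside 6.28% of all genes called and 4.27% called lower. The share of lower genes among all calls was 68.0% as deposited and 87.8% after quantile normalization, under which Prph was not called (adjusted p = 0.0581). The call of Prph was also lost without naive replicate 1 or 3 at 4 weeks or replicate 1 or 2 at 8 weeks (adjusted p 0.0569 to 0.0969 in limma). With the injury list mean as a covariate neither passed (adjusted p = 0.102 for Capza2 in limma). The injury means of these groups did not overlap, so this fit does not test the part of the injury list. Between 16 and 8 weeks 0 of 10 passed in limma, beside 0.0197% of all genes, and none reached an unadjusted p of 0.05, beside 11.9%. Capza2 differed by 0.0017 ± 0.06 there and Prph by 0.06 ± 0.07. Operated mice showed no called member between 16 and 4 weeks. In sham mice 0 of 10 passed in limma (1.76% of all genes) and 2 reached an unadjusted p of 0.05 (18.5% of all genes). These were Nefm (-0.30 ± 0.12; adjusted p = 0.173 in limma) and Tubb3 (-0.16 ± 0.06; adjusted p = 0.181 in limma). In DMM mice 0 of 10 passed (2.87% of all genes) and 1 reached an unadjusted p of 0.05 (18.4% of all genes), again Nefm (-0.26 ± 0.12; adjusted p = 0.242 in limma). Capza2 was 0.09 ± 0.06 higher at 16 weeks in sham and 0.06 ± 0.06 higher in DMM mice, neither past the threshold, against -0.39 in naive mice.

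Whether the surgery difference itself changed with time was tested as an interaction. The difference between sham and naive mice in Capza2 went from -0.37 at 4 weeks to 0.11 at 16 weeks, a change of 0.48 ± 0.09 (adjusted p = 0.0111 in limma). It was the only member of 10 to pass, beside 2.09% of all genes, and it did not pass after quantile normalization (0.34; adjusted p = 0.0679). Of the 424 genes called, 387 were higher and 37 lower; after quantile normalization 206 were higher and 160 lower, and after cyclic loess 148 higher and 281 lower. This comparison was also added after the values had been seen, and it rests on the naive arrays at 4 weeks. For DMM against naive mice the change in Capza2 was 0.44 ± 0.09 between 16 and 4 weeks (adjusted p = 0.204 in limma) and 0.41 ± 0.09 between 8 and 4 weeks (adjusted p = 0.435 in limma). In the first of these, 0 of 10 members passed, beside 0.00494% of all genes, and 1 reached an unadjusted p of 0.05, beside 10.6%. In the second, 0 of 10 passed, beside 0% of all genes, and 2 reached an unadjusted p of 0.05, Capza2 and Prph, beside 8.78%. For DMM against sham mice, which leaves the naive arrays out, 0 of 10 passed in limma beside 0% of all genes, and none reached an unadjusted p of 0.05, beside 5.89%. The change in Capza2 was -0.03 ± 0.09 there.

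**Figure D3:**
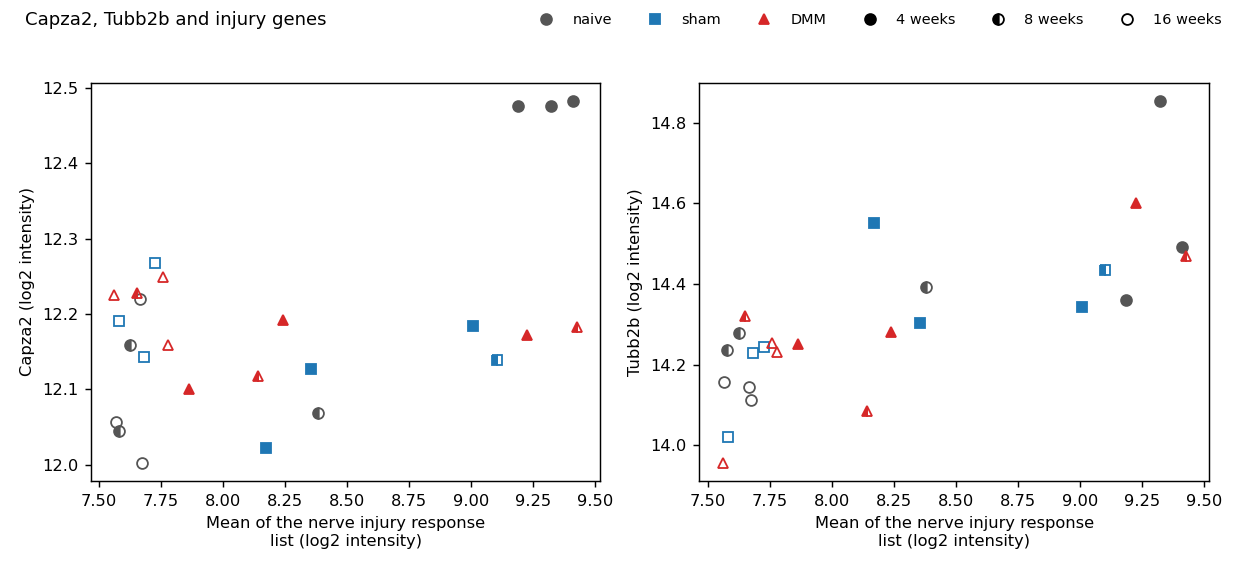
Log2 intensity of Capza2 (left) and Tubb2b (right) on each of 25 arrays against the mean log2 intensity of 19 nerve injury response genes on the same array; colour and shape give the treatment and filling the time. The 3 naive arrays at 4 weeks have Capza2 at 12.48 with injury means of 9.19 to 9.41, and the 4 operated arrays with injury means of 9.01 to 9.43 have Capza2 at 12.14 to 12.18.

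Of the operated arrays, 4 had an injury list mean above 9. Their Capza2 values were 12.17 on the DMM array at 4 weeks with a mean of 9.23, 12.18 on the DMM array at 8 weeks with 9.43, 12.14 on the lone sham array with 9.10 and 12.18 on the sham array at 4 weeks with 9.01. No relation between the injury list and Capza2 was tested over arrays.

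The rest of the cytoskeleton was read from lists chosen with earlier results of these data known. For the DMM-naive difference over the 3 times, 0 genes passed in limma in each of 7 lists: 7 intermediate filament and linker genes, 17 other tubulins and folding cofactors, 25 microtubule-binding proteins, 6 tubulin-modifying enzymes, 21 genes of actin and its capping and severing proteins, 4 ankyrins and spectrins and 18 transport motors. Over all genes 0.0444% passed and 7.32% reached an unadjusted p of 0.05. In the lists 1 intermediate filament gene, 1 other tubulin and 1 actin gene reached it, and the list medians lay between -0.01 and 0.02. In naive mice at 16 against 4 weeks, the microtubule-binding proteins went both ways, with 4 of 25 higher and 4 lower, so 32% were called beside 18.8% of all genes. Between 16 and 8 weeks in naive mice, 0 genes of each of the 7 lists passed in limma, beside 0.0197% of all genes. From 0 to 4 genes of a list reached an unadjusted p of 0.05, beside 11.9% of all genes. The 4 were Tubb4a, Tuba4a, Tbce and Tubd1, of the 17 other tubulins and folding cofactors. Stathmin relatives were among the genes lower in naive mice at 16 than at 4 weeks. Stmn4 differed by -1.33 ± 0.16 (adjusted p = 0.000206 in limma) and Stmn1 by -0.41 ± 0.08 (adjusted p = 0.00347 in limma), while Stmn2 differed by -0.06 ± 0.06. In the same comparison Dpysl3, a growth cone protein that binds tubulin, was also lower (-0.28 ± 0.07). Camsap3, which protects the minus ends of microtubules, was higher (0.42 ± 0.09, adjusted p = 0.00478 in limma).

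Of the 17 other tubulins and folding cofactors, 4 were higher and 1 lower (29.4%, beside 18.8% of all genes). Tubb4a, a beta tubulin abundant in the adult nervous system, was at 17.44 against 16.98 (0.45 ± 0.08; adjusted p = 0.00104 in limma), opposite in direction to Tubb3 and Tubb2b. Tubg2 (0.53 ± 0.10) and Tubg1 (0.29 ± 0.07), the gamma tubulins that seed microtubules, were also higher, and Tubb6 was lower (-0.54 ± 0.12; adjusted p = 0.00624 in limma). Of 21 actin genes 1 was higher (Cd2ap, 0.23 ± 0.08) and 3 lower, a share of 19.0% that is close to that of all genes. These were Capza1, the sister subunit of Capza2 (-0.45 ± 0.08; adjusted p = 0.00131), Actr3 of the branching complex (-0.24 ± 0.05; adjusted p = 0.00222) and Tmsb10, which holds actin monomers (-0.24 ± 0.06). Both alpha capping subunits were therefore lower in naive mice at 16 than at 4 weeks. Both were lower at 8 weeks already: Capza1 was at 12.38 at 8 weeks against 12.78 at 4 weeks. Capza2 was at 12.48, 12.09 and 12.09 at 4, 8 and 16 weeks. Of 7 intermediate filament and linker genes, Nes, the filament of immature cells, was lower (-0.50 ± 0.15; adjusted p = 0.022 in limma). Ank3, which organizes the axon initial segment, was the 1 of 4 ankyrins and spectrins that was higher (0.73 ± 0.16), Kif5a, the neuronal kinesin that carries neurofilaments, the 1 of 18 motors (5.56%; 0.36 ± 0.07; 4 motors were called after quantile normalization), and Atat1, which acetylates tubulin, the 1 of 6 modifying enzymes (0.38 ± 0.09).

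The members were next compared with each other across the 25 arrays. Of 45 pairs, 16 correlated after adjustment over the 45 (permutation test with 100000 permutations), all 16 positively. Arrays were permuted without regard to group, so differences between groups enter these p-values. The share of pairs of other genes that correlate as strongly was not computed, so the count is not a trait of these genes. The neurofilament subunits rose and fell together from array to array. Nefl and Nefh had r = 0.83 (rho = 0.82), Nefm and Nefh r = 0.82 (rho = 0.82) and Nefl and Nefm r = 0.75 (rho = 0.79), with permutation p-values for r of 1e-05, 1e-05 and 3e-05 (1e-05 is the smallest these permutations can give) and adjusted p-values of 0.00015, 0.00015 and 0.00027. Without the 2 arrays farthest from the median the r values were 0.80, 0.79 and 0.72. They were 0.60, 0.58 and 0.50 after quantile normalization and still past the threshold. They were as high within groups: over the deviations from the group means on the 24 arrays of groups of 3, r was 0.83, 0.93 and 0.77.

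A second set was made up of Prph and the beta tubulins. Prph correlated with Tubb2b (r = 0.81, rho = 0.75; permutation p of 1e-05 and 6e-05, adjusted p = 0.00015 for r) and with Tubb3 (r = 0.74, rho = 0.69; permutation p of 2e-05 and 0.00014, adjusted p = 0.000225 for r). Without the 2 outermost arrays r was 0.69 and 0.70, and without the 3 naive arrays at 4 weeks it was 0.69 and 0.67. Within groups r was 0.74 and 0.37. Tubb3 correlated with both sets: r was 0.57 with Nefl (rho = 0.52; 0.47 without 2 arrays), 0.55 with Nefm (rho = 0.55; 0.44 without 2 arrays) and 0.64 with Tubb2b (rho = 0.71; 0.65 without 2 arrays). Within groups, the r values of Tubb3 with Nefl, Nefm and Tubb2b were lower, at 0.20, 0.25 and 0.12. Stmn2 correlated with Prph (r = 0.65, rho = 0.55) and Capza2 (r = 0.59, rho = 0.61). Its r with Tubb2b (0.58) and Tubb3 (0.50) passed, but its rho (0.42 and 0.44) did not (permutation test, adjusted p = 0.0876 and 0.0781). The correlation of Prph with Capza2 (r = 0.48, rho = 0.27) rests on the 3 naive arrays at 4 weeks, without which it was -0.12. Without those arrays 9 of the 45 pairs passed, all 9 among the 16; they include the 3 neurofilament pairs and both Prph pairs with beta tubulins.

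**Figure D4:**
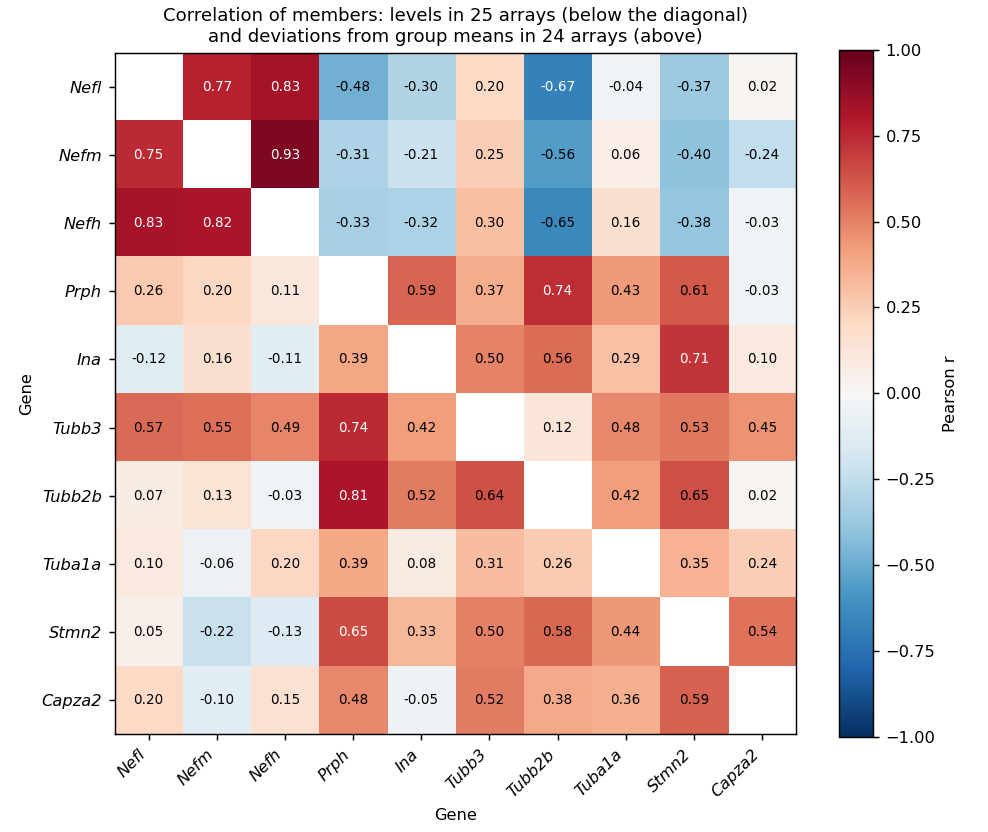
Pearson correlation between the 10 genes, as numbers and colour from -1 to 1: below the diagonal over the levels on 25 arrays, above it over deviations from the group mean on the 24 arrays of groups with 3. Nefl, Nefm and Nefh form a block (0.75 to 0.83 below and 0.77 to 0.93 above the diagonal), and Tubb2b is negative against them above the diagonal (-0.56 to -0.67).

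Within groups, Tubb2b ran opposite to the triplet. Its deviations had r = -0.67 with those of Nefl, -0.56 with Nefm and -0.65 with Nefh, and r = 0.74 with those of Prph and 0.65 with those of Stmn2. These values are descriptions, and all arrays share 1 normalization. The members were then set beside markers of the 2 broad kinds of sensory neuron, a comparison added after seeing the data, with 20 relations in the family. Against the mean of 13 markers of small unmyelinated neurons, Nefl had r = -0.74 (rho = -0.75), Nefm r = -0.72 (rho = -0.72) and Nefh r = -0.76 (rho = -0.68). Their permutation p-values for r were 2e-05, 0.00015 and 3e-05, and 0.0002, 0.00075 and 0.0002 adjusted over the 20. Without the 2 outermost arrays r was -0.70, -0.70 and -0.71. Against the mean of 9 markers of large myelinated neurons, Nefh had r = 0.56 (rho = 0.57) and Nefm r = 0.55 (rho = 0.56; adjusted permutation p = 0.0141 for both r), with 0.55 and 0.56 without 2 arrays. After quantile normalization Nefm still passed (r = 0.63) and Nefh did not (r = 0.41; permutation test, adjusted p = 0.0864). Stmn2 had r = -0.74 with the same list (rho = -0.51; adjusted permutation p = 0.0002 for r and 0.035 for rho), and -0.57 without 2 arrays; after quantile normalization it did not pass (r = -0.45; adjusted permutation p = 0.0597). With the small-neuron list, Nefl no longer passed after quantile normalization (r = -0.44) or cyclic loess (r = -0.28), whereas Nefm (-0.58 and -0.62) and Nefh (-0.56 and -0.69) did.

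Over deviations from the group means, Tubb2b followed the small-neuron list closely (r = 0.93 as deposited, 0.93 after quantile normalization and 0.93 after cyclic loess), as did Prph (0.75, 0.71 and 0.71). Over the levels on all 25 arrays, where differences between groups enter, r was 0.15 for Tubb2b (rho = -0.07) and 0.08 for Prph (rho = 0.04), and neither passed. After quantile normalization the value for Prph was 0.57 and passed (permutation test, adjusted p = 0.0198). The naive arrays at 4 weeks give an example. The array with Tubb2b at 14.86 had the highest small-neuron mean of its group, 12.94, and the lowest Nefh, 16.30. The other 2 had small-neuron means of 12.44 and 12.45, Tubb2b at 14.36 and 14.49 and Nefh at 16.57 and 16.69. In this group the array richest in small-neuron signal was also highest for Tubb2b and Prph (16.64) and lowest for Nefl, Nefm and Nefh. The part of the mix of neurons in the tissue in these correlations was not tested.

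**Figure D5:**
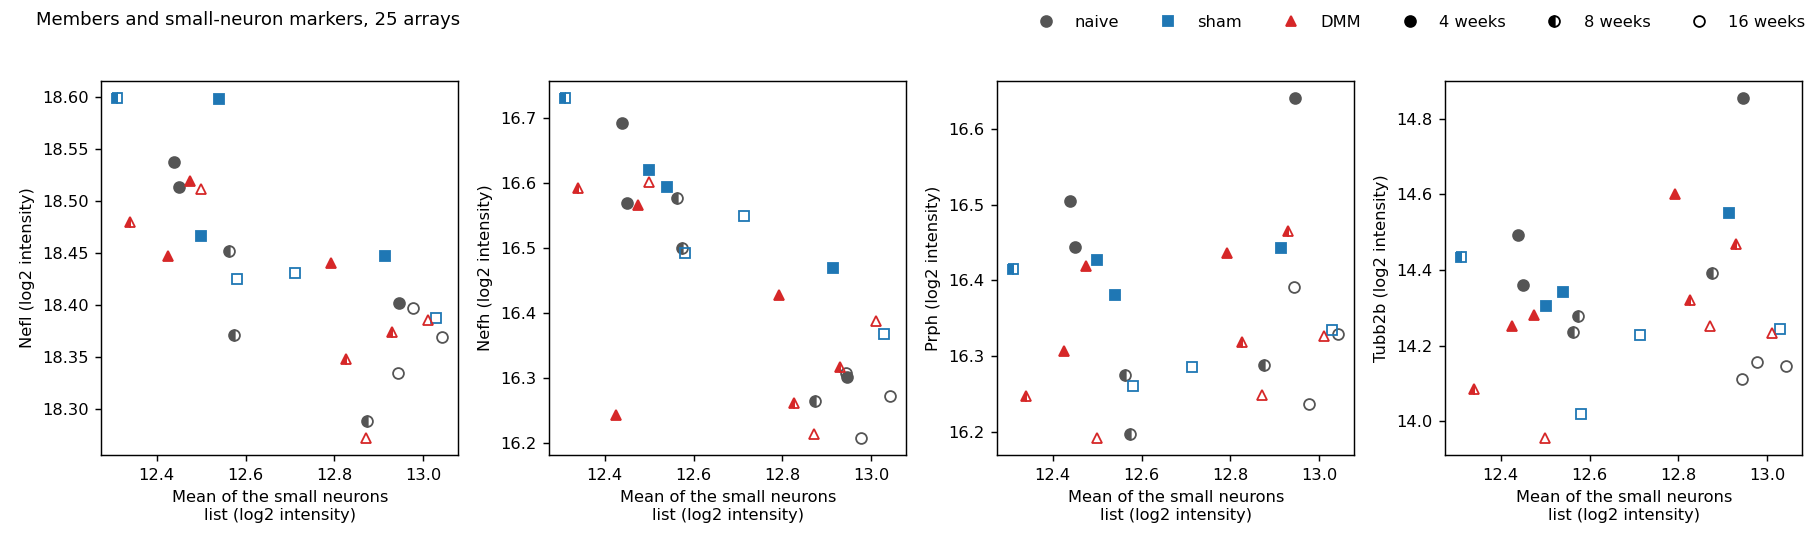
Log2 intensity of Nefl, Nefh, Prph and Tubb2b (left to right) on each of 25 arrays against the mean log2 intensity of 13 markers of small unmyelinated neurons on the same array; colour and shape give the treatment and filling the time. Nefl and Nefh fall as the small-neuron mean rises (r = -0.74 and -0.76), whereas Prph and Tubb2b show no pooled slope (r = 0.08 and 0.15) but follow it within groups.

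For each member the gene with the most similar pattern over the 25 arrays was found among the named genes tested that are not members, as a description. Nefl was most like Gria4, an AMPA receptor subunit (r = 0.90), Nefm like Ahnak2 (0.89), Nefh like Acsl6, which activates long-chain fatty acids (0.89), and Prph like Tmem183a (0.89). Tubb3 was most like Srxn1 (0.91), Tubb2b like Ppfia2, a synaptic scaffold of the liprin family (0.86), and Stmn2 like Ppef1 (0.87). Capza2 was most like Tmem41b (0.88), Ina like Trp53inp2 (0.82) and Tuba1a like Rnf187 (0.76).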

How the data were processed

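Values are the authors' deposited log2 intensities, 1 per probe set, from arrays labelled by the manufacturer's protocol per the labels. The log2 scale was read from the values (2.23 to 19.70). How the authors normalized and summarized them, and with which software, is not given in the sources used here. Of 72685 probe sets, 65956 measured transcripts, and the 30604 with exactly 1 symbol gave 30142 genes (symbols from the platform annotation, updated by Entrez identifier for 827). The 20260 genes with a mean above 4.52, the 40th percentile of transcript probe sets, were kept.

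One mean per group was fitted over all 25 arrays in limma 3.58.1 (R 4.3.3; 16 residual and 3.28 prior degrees of freedom), two-sided, with Benjamini-Hochberg adjustment over 20260 genes and a threshold of 0.05. The variance of the lone sham array was taken from the other groups. Errors are SEs unless marked. The procedure was tested on simulated data. Arrays have no read depth, and their number limits the precision. Correlations used Python 3.11.15, numpy 2.4.6 and 100000 permutations.

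Members and lists were chosen with earlier results of these data known. The text was to cover all members and, of each list, up to 4 genes, those called with the smallest p or else those of smallest p. The most similar gene is that of highest r over 25 arrays. Same-numbered arrays correlated in their deviations between -0.36 and 0.32 (21 pairs). All 3 pairs were over 0.1 for sham and naive mice at 16 weeks only. No label states a pairing, and the main fit used none. The replicate number entered only the replicate block named below, over all arrays. Alternatives were no filter, quantile and cyclic loess normalization, an intensity trend, array weights, the replicate block, means over probe sets, fits on the arrays compared and each array left out. Added after seeing the data were the injury list mean as a covariate and leaving out naive arrays at 4 weeks.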

Additional observations from a re-analysis of the deposited data

Results flagged for a closer look

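Each operated array was set against the mean of the naive group of its time, which the arrays of that time share. On this measure Capza2 pointed opposite ways at 4 weeks and at later times. The share of all genes with such a pattern was not computed. Single naive arrays did not all follow it: at 16 weeks naive replicate 2 (12.22) was above sham arrays at 12.19 and 12.14 and a DMM array at 12.16. For sham against naive mice the difference of Capza2 was -0.46 to -0.29 on the arrays at 4 weeks and 0.05 to 0.17 at 16 weeks, and the change of 0.475 passed the test (adjusted p = 0.0111 in limma). For DMM against naive mice it was -0.38 to -0.29 at 4 weeks, 0.03 to 0.14 at 8 weeks and 0.07 to 0.16 at 16 weeks, and the changes of 0.409 (adjusted p = 0.435 in limma) and 0.442 (adjusted p = 0.204 in limma) did not pass. All 3 use the same naive arrays at 4 weeks. Tuba1a also turned, from -0.02 on the sham arrays at 4 weeks to 0.02 at 16 weeks, a change of 0.0424 that did not pass (adjusted p = 0.757 in limma). Groups of 3 arrays are too small for a test of single outlying arrays.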

How the results depend on the processing

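Over the alternatives run there were 3350 values of member differences. Of 130 that were called as reported, 91 kept their call and direction. Of 3216 called in neither setting, 312 had another sign, the largest of them 0.241 in size. The DMM counts of 0 held except at 4 weeks with array weights, where 1 member (Capza2, adjusted p = 0.038 in limma) was called against naive mice. For sham against naive mice at 4 weeks the count of 1 was 0 with no filter and 0 with only the arrays compared, and 0 to 1 with 1 array left out. For naive mice at 16 against 4 weeks the count of 4 was 1 after quantile normalization, 1 after cyclic loess, 2 with the injury covariate, 2 with only the arrays compared, 0 for 16 against 8 weeks, 5 with array weights (Nefh joining) and 2 to 4 with 1 array left out. There Prph was 0.00251 after quantile normalization and 0.065 against 8 weeks, Capza2 was 0.00168 against 8 weeks, and Ina was 0.455 with the covariate; beyond the arrays and genes each setting leaves out, the cause was not tested. For naive mice at 8 against 4 weeks the count of 2 was 1 after quantile normalization, 0 with the covariate, 1 with only the arrays compared, 3 with array weights (Tubb3 joining) and 1 to 2 with 1 array left out. The change of sham against naive mice had a count of 1, and 0 after quantile normalization. Without the naive arrays at 4 weeks 9 pairs of members correlated in place of 16, and Prph with Capza2 turned to -0.12; 11 pairs passed after quantile normalization (9 of them among the 16) and 18 after cyclic loess (10 of them). The replicate block changed no call of a member: Capza2 for sham against naive mice at 4 weeks had an adjusted p of 0.0397 with it in limma. The spread between 3 arrays limits what could be seen: at 16 weeks the 95% interval for DMM against naive mice ran from -0.10 to 0.09 for Tuba1a and from -0.55 to 0.01 for Ina.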
